A study of Mus musculus with 12 samples.

Results

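The genes described here are 10 mouse genes that osteocytes use to build dendrites, to couple to their neighbours and to sense mechanical load: podoplanin (Pdpn), Cd44, connexin 43 (Gja1), the pannexins Panx1 and Panx3, the ion channels Piezo1, Piezo2 and Trpv4, and the polycystins Pkd1 and Pkd2. They were chosen by name, and 11 of the 56350 rows of the count table carry one of these names, because Pdpn has 2 rows. RNAseq was done on 12 libraries of MPC2, a mouse mesenchymal stem cell line that is 1 clone and conditionally immortalized, with 3 libraries in each of 4 conditions. Undifferentiated cells (MSCs), which proliferate at 33 °C, and osteocytes (Ocy), differentiated for 3 weeks at 37 °C with beta-glycerophosphate and ascorbic acid, were treated for 48 hours with vehicle (DMSO) or with 50 µmol/L FG-4592 (Roxadustat). FG-4592 inhibits the prolyl hydroxylases that mark hypoxia-inducible factors (HIF) for breakdown, and so mimics low oxygen. Temperature and media changed together with differentiation, so their parts in a difference between Ocy and MSCs cannot be told apart. The labels do not say that the 3 libraries of a condition came from separate cultures, so the p-values measure the spread between these libraries, which may be technical.

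Osteocytes lie in mineralized matrix and reach each other through dendrites that run in fine canals. Podoplanin and the hyaluronan receptor CD44 are membrane proteins that are tied to the actin of such processes through ezrin, radixin and moesin (the ERM proteins). Connexin 43 forms the gap junctions and hemichannels that join osteocytes, pannexins form channels that release ATP, and Piezo channels, TRPV4 and the polycystins of the primary cilium carry or gate calcium signals when the membrane is deformed.

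Library totals ranged from 52829185 to 68108470 counts. Levels are given as CPM, the counts scaled by the TMM-adjusted size of each library, with the SD over the 3 libraries of a condition. Fold changes and FDR came from 1 edgeR quasi-likelihood fit over the 16484 genes that exceeded 10 counts in 3 or more libraries. Standard errors (SE) and 95% intervals were derived from its fold changes and test statistics. Of the 10 genes, 9 passed this filter and Pdpn did not. A gene was said to rise or fall at an FDR under 0.05, and the 2 cutoffs of the study added an absolute log2 fold change above 1.

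The labelled cell type was checked against osteocyte markers. In vehicle, Dmp1, a matrix protein of early osteocytes, was at 1.19 ± 0.622 CPM in MSCs and 11.2 ± 2.3 CPM in Ocy, and Phex, an endopeptidase of the same cells, was at 0.977 ± 0.116 and 57.6 ± 6.32 CPM. With FG-4592 both were lower in Ocy, Dmp1 at 2.06 ± 0.582 CPM and Phex at 2.83 ± 0.871 CPM. The third detected marker, the hormone gene Fgf23, was higher, with 5, 0 and 0 counts in vehicle-treated Ocy and 125, 79 and 98 with FG-4592. The summed level of the 6 osteocyte markers (3 detected) went from 61.4 to 76.7 CPM in vehicle-treated Ocy to 6.06 to 7.00 CPM in FG-4592-treated Ocy. In MSCs that sum was 1.69 to 3.13 CPM in vehicle and 0.375 to 0.772 CPM with FG-4592. The mature markers Mepe and Sost, together with Pdpn, stayed at or under 3 counts in all 12 libraries. Pdpn was not measurable from these counts, for the reason given below, so its low value says nothing on the cell type. The summed level of 5 adipocyte markers was 82.8 to 89.1 CPM in vehicle-treated MSCs and 1682 to 2310 CPM in vehicle-treated Ocy, with all 5 detected, and 69.9 to 72.9 and 1923 to 2296 CPM with FG-4592. Adipoq made up most of the sum in Ocy, and with FG-4592 it went there from 1470 ± 269 to 1372 ± 116 CPM. Pparg went from 122 ± 6.27 to 113 ± 2.2 CPM in the same cells. Fabp4 went the other way, from 104 ± 10.2 to 238 ± 48.8 CPM, as did Cidec, from 40.9 ± 7.02 to 63.0 ± 2.68 CPM, and Plin1, from 283 ± 37.0 to 326 ± 22.5 CPM. Summed proliferation markers (4 of 4 detected) went from 638 to 655 CPM in vehicle-treated MSCs to 405 to 488 CPM with FG-4592, and from 340 to 409 CPM in vehicle-treated Ocy to 107 to 178 CPM with FG-4592. Summed chondrocyte markers (4 of 5 detected, Acan at or under 3 counts) were at 82.8 to 92.2 CPM in vehicle-treated MSCs and 148 to 164 CPM with FG-4592, and at 108 to 128 CPM in vehicle-treated Ocy and 367 to 445 CPM with FG-4592. Col2a1 alone made the chondrocyte sum higher in vehicle-treated Ocy than MSCs (0.771 ± 0.313 CPM in MSCs and 62.7 ± 9.73 CPM in Ocy), while Sox9 (84.2 ± 4.34 and 51.7 ± 4.76 CPM) and Col10a1 (2.03 ± 0.169 and 0.693 ± 0.357 CPM) were lower. The sum of 7 osteoblast markers, all detected, was 7991 to 9908 CPM over the 12 libraries and consisted mostly of Col1a1 and Col1a2. Of the others, Ibsp, a mineral-binding matrix protein, went from 59.6 ± 4.48 to 3.43 ± 0.493 CPM with FG-4592 in MSCs and from 35.6 ± 1.57 to 12.2 ± 4.91 CPM in Ocy, and the alkaline phosphatase gene Alpl from 76.6 ± 7.14 to 19.2 ± 1.23 CPM and from 61.0 ± 3.24 to 34.4 ± 6.45 CPM. With FG-4592 the osteoblast and adipocyte sums overlapped with those in vehicle in Ocy, and in MSCs both were lower without overlap (osteoblast 8467 to 8986 CPM in vehicle and 7991 to 8318 CPM with FG-4592). The osteocyte, proliferation and chondrocyte sums moved with FG-4592 in both cell types and the osteocyte, proliferation, chondrocyte and adipocyte sums with differentiation, as genes below did. The summed osteoclast markers (2 of 5 detected, mostly Ctsk) were at 24.7 to 25.8 CPM in vehicle-treated MSCs, 52.7 to 60.2 CPM in vehicle-treated Ocy and 36.0 to 37.1 CPM in FG-4592-treated Ocy. The muscle sum (1 of 4 detected) was 7.54 to 8.65 CPM in vehicle-treated and 2.35 to 3.45 CPM in treated MSCs, and 4.49 to 5.75 and 6.54 to 8.58 CPM in Ocy. Blood, endothelial and neural sums were at or under 3.65, 1.09 and 4.397 CPM, and also differed between some conditions. The part of these markers in each result was not tested. In bulk RNA, fewer cells of a type and less RNA per cell cannot be told apart.

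FG-4592 lowered 2 of the 9 genes tested in MSCs, Gja1 and Piezo2, and raised 0. Both also passed the 2 cutoffs together. Over all genes tested in MSCs, 20.4% fell, 17.6% rose and 9.29% passed both cutoffs in either direction. In Ocy, FG-4592 lowered the same 2 genes, again past both cutoffs, and raised 2, Pkd1 and Pkd2. There, 22% of all genes tested fell, 21.9% rose and 10.5% passed both cutoffs. Of 9 genes, counts of 0 to 2 lie near these shares and are no result about the members as a group. In MSCs 0 members were higher at an unadjusted p under 0.05 as well, and DESeq2 also called 0. With only the libraries compared in the fit 2 rose there, Piezo1 and Pkd2. Without the first vehicle-treated Ocy library 1 rose, Pkd2, and without the second 1 rose, Piezo1. Without the second FG-4592-treated Ocy library, or with the library size alone as the scale, 4 members fell in Ocy, Cd44 and Panx3 in addition. The plot of levels by library shows each gene in the 4 conditions.

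**Figure D1:**
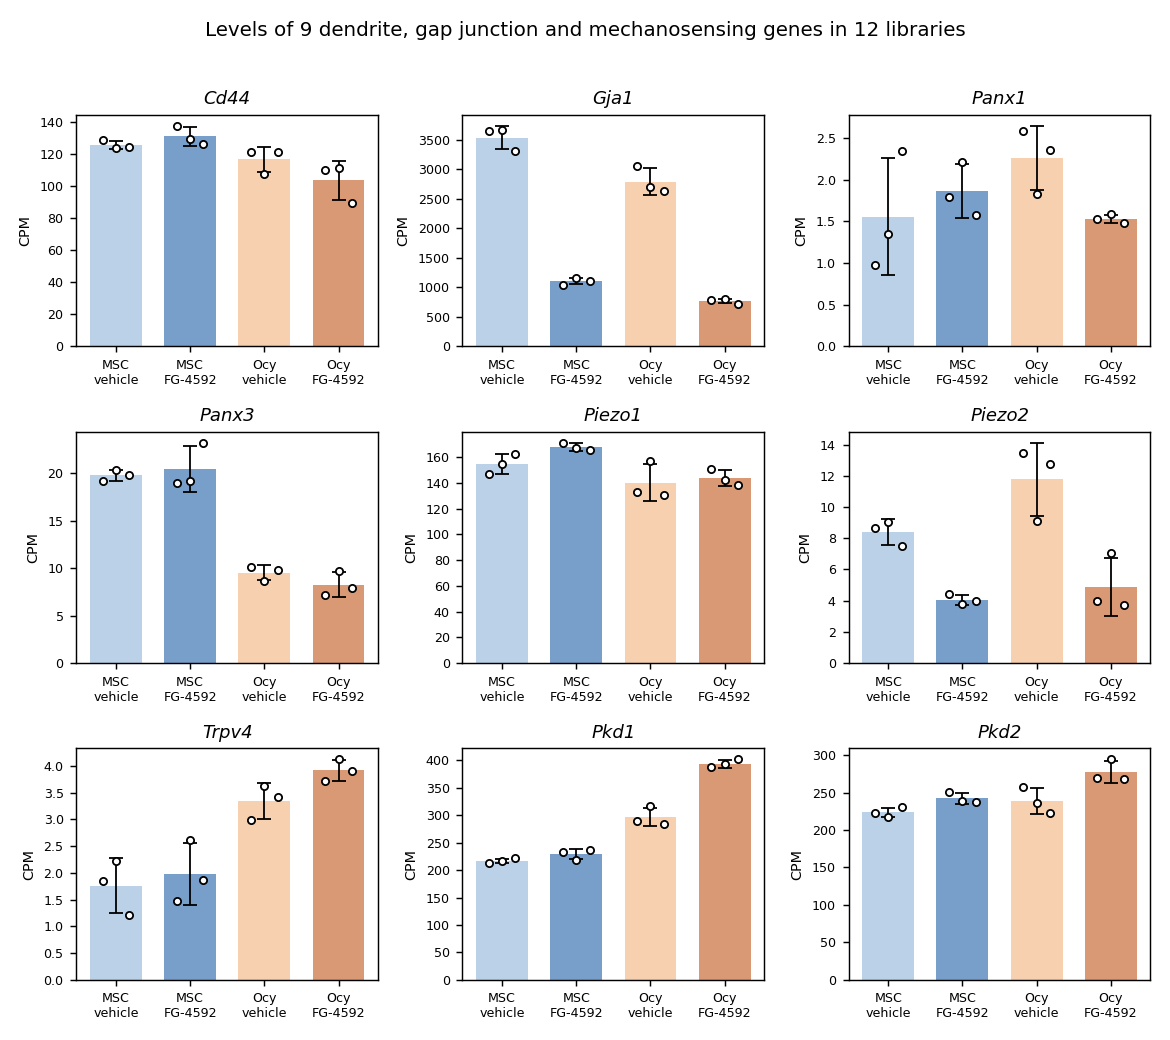
Level in CPM (vertical axes, linear from 0) of the 9 genes that passed the filter, in vehicle- or FG-4592-treated MSCs and osteocytes (Ocy); bars are means, error bars the SD and open points the 3 libraries of a condition. Gja1 was at 2630 to 3661 CPM in the 6 vehicle-treated libraries and at 720 to 1163 CPM in the 6 FG-4592-treated ones.

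Between vehicle-treated Ocy and MSCs, Panx3 and Gja1 were lower and Trpv4 and Pkd1 higher in Ocy, so that 2 fell and 2 rose, and Panx3 alone passed both cutoffs. Over all genes tested, 24.9% fell, 26% rose and 15.9% passed both cutoffs in this comparison. Between FG-4592-treated Ocy and MSCs, 4 fell (Cd44, Gja1, Panx3 and Piezo1) and 3 rose (Trpv4, Pkd1 and Pkd2), with 1, Panx3, past both cutoffs, where 25.3% of all genes fell, 30.5% rose and 18.3% passed both. The response to FG-4592 differed between the cell types for 1 member, Pkd1, whose response was higher in Ocy. For all genes this difference was called up for 13.3% and down for 11%, and 5.01% passed both cutoffs. The response was called lower in Ocy for 0 members by edgeR and by DESeq2, and for 1, Cd44, at an unadjusted p under 0.05. The comparisons share libraries and are not independent of each other.

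**Figure D2:**
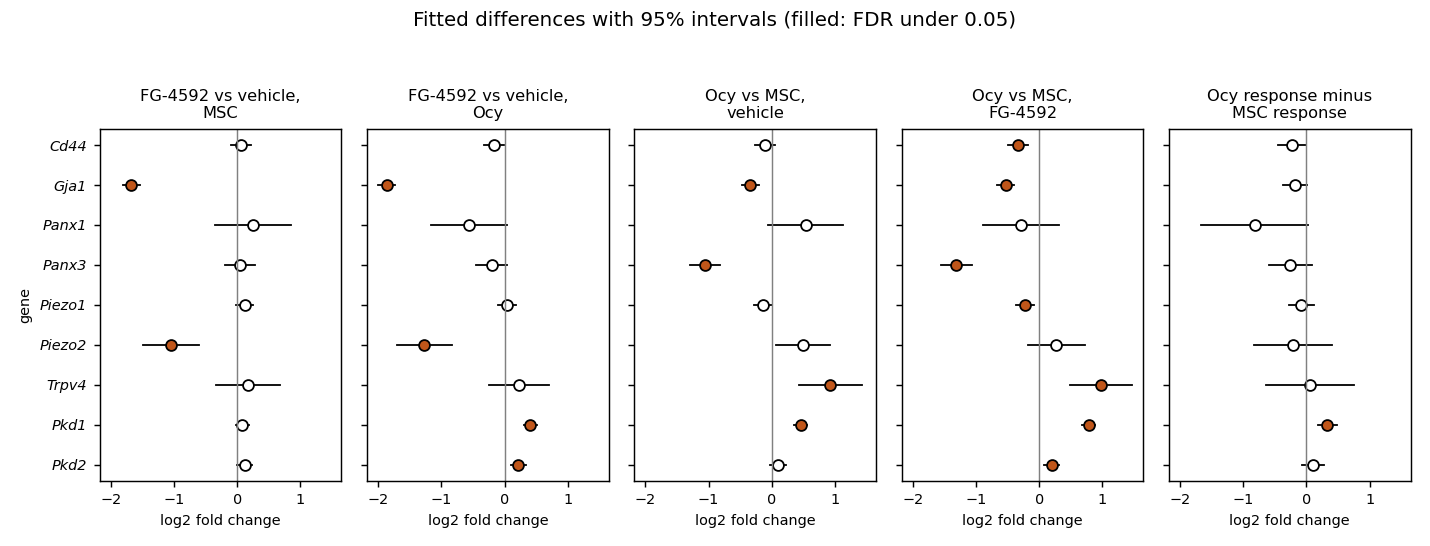
Log2 fold change (horizontal axes) of 9 genes in the 4 comparisons of conditions and in the difference between the FG-4592 responses; lines are 95% intervals and filled points passed an FDR of 0.05. Gja1 and Piezo2 lie left of 0 under FG-4592 in both cell types, and Pkd1 alone is filled in the last panel.

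The promoters of Gja1 and Cd44 are shown because both hold the core letters that HIF binds, whereas FG-4592 lowered Gja1 in both cell types and Cd44 passed the test in neither. Each run is the 250 bases before the RefSeq start site in GRCm38.p6 (mm10), written 5′ to 3′ on the strand of the gene, with the core in capitals. The Gja1 window is chr10:56377050-56377299 on the plus strand, and the Cd44 window is chr2:102901666-102901915 on the minus strand.
Gja1: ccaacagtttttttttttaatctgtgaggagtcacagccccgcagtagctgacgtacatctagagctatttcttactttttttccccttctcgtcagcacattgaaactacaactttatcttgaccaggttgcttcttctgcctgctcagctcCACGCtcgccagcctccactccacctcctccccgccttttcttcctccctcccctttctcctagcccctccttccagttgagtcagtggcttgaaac
Cd44: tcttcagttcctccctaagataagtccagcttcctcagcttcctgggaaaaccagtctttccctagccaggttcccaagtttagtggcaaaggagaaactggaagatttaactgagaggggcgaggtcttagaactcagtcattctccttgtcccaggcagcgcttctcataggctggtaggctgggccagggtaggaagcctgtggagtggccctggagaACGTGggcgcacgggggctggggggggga
In Gja1 the capitals are GCGTG read on the opposite strand, with the nearest base 93 bases before the start site, and in Cd44 they are ACGTG on the strand of the gene, 25 bases before it.

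Both ACGTG and GCGTG were searched on both strands in the RefSeq windows of 8 of the 10 genes. A match was found in 5, Cd44, Gja1, Panx1, Pdpn and Pkd1, and none in Piezo1, Pkd2 or Trpv4. In Pdpn the matches on both strands overlap, so that they form 1 palindrome, and part of the Pkd1 window lies in the first exon of the annotation used for counting. The Pkd1 match itself lies after the start of the gene in that annotation, not before it. Of 32851 windows of the same length, 38.6% held at least 1 match. These matches describe letters and not binding, and genes with a match were seen to fall, to rise and to pass no test.

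Of the dendrite proteins, podoplanin, which marks young osteocytes as their processes extend, had 1 count in all 12 libraries together. That count was in the first FG-4592-treated Ocy library, and the 11 others were at 0. The zero cannot be read as absence of the mRNA. A second Pdpn row lies on a scaffold outside the main chromosomes with the same exonic length of 1817 bases, it had 0 counts, and the authors counted only reads that mapped to a single place. Among protein-coding genes of the main chromosomes, 127 have a scaffold row of the same name and exon lengths, and 111 of them (87.4%) had at most 10 counts in every library, whereas 7993 of the 21696 others (36.8%) did. The ATP synthase subunit gene Atp5a1, which has such a copy, had 20 to 70 counts a library and its partner Atp5b, which has none, had 27837 to 44225. For the respiratory subunit Uqcrc1, with a copy, the range was 6 to 21 counts, and for Uqcrc2, without one, 4571 to 6284 counts. These 4 genes were chosen after their values were seen. Whether Pdpn is expressed in these cells was therefore not measurable from these counts.

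Cd44, the hyaluronan receptor, was at 129, 124 and 125 CPM in vehicle-treated MSCs and at 138, 130 and 126 CPM in FG-4592-treated MSCs. It was at 121, 108 and 122 CPM in vehicle-treated Ocy and at 110, 112 and 89.9 CPM in FG-4592-treated Ocy. The treated and vehicle-treated libraries overlapped in both cell types. In Ocy the log2 fold change with FG-4592 was −0.17 (95% interval −0.33 to −0.01, FDR 0.0731, edgeR), and in MSCs it was 0.06 (−0.09 to 0.22, FDR 0.553). The FDR in Ocy passed 0.05 in 8 of 21 alternative settings and ranged from 0.00519 to 0.373. Cd44 was lower in Ocy than in MSCs under FG-4592, by a log2 fold change of −0.34 (SE 0.0732, FDR 0.000953), with no overlap between the libraries.

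The partners of podoplanin and CD44 in the process were read from a list of 16 ERM, actin-bundling, hyaluronan and adhesion genes, all tested. In FG-4592-treated MSCs 4 rose (Capg, Ezr, Has1 and Has2) and 5 fell (Actn1, Dstn, Fscn1, Tln1 and Vcl), with a median log2 fold change of −0.08 beside −0.05 over all genes, where 17.6% of all genes rose and 20.4% fell. In FG-4592-treated Ocy 4 rose (Capg, Cd9, Has1 and Has2) and 9 fell, with a median of −0.23 beside 0.0015 over all genes, where 21.9% of all genes rose and 22% fell. All 3 ERM genes were among those that fell in Ocy: ezrin (Ezr) by 0.24, radixin (Rdx) by 0.38 and moesin (Msn) by 0.21 on the log2 scale. The fall was not particular to them. Among the others that fell there were Dstn by 0.92, Pls3 by 0.40, Actn1 by 0.37, Mmp14 by 0.36 and Fscn1 by 0.21. In MSCs Ezr rose by 0.21 on the same scale, and Rdx (−0.07) and Msn (0.05) did not pass. The response was lower in Ocy for Ezr, Rdx and Msn when the difference itself was tested (−0.45, −0.31 and −0.26, with Dstn and Pls3 also lower and Capg, Cd9 and Tln1 higher), where the response of 13.3% of all genes was higher and of 11% lower.

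In the same list, 5 genes rose with differentiation in vehicle (Ezr, Has1, Has2, Mmp14 and Rdx) and 8 fell, with a median of −0.30 beside −0.0064 over all genes, where 26% of all genes rose and 24.9% fell. Capg, which caps actin filaments, was at 148 ± 4.47 CPM in vehicle-treated MSCs and 70.1 ± 6.33 CPM in vehicle-treated Ocy. Has1, a hyaluronan synthase that makes the ligand of CD44, had 7, 5 and 11 counts in vehicle-treated MSCs and 32, 34 and 53 with FG-4592. It had 93, 60 and 75 counts in vehicle-treated Ocy and 102, 197 and 140 with FG-4592. Its groups did not overlap in either cell type, but its rise in Ocy lost the call without any 1 of 4 libraries, for example without the second FG-4592-treated Ocy library (log2 fold change 0.66, FDR 0.154). Genes named here and in the lists below as part of a count of 5 or fewer were named after their values were seen.

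Gja1 had the highest level of the members and the largest fold change with FG-4592. In vehicle-treated MSCs it was at 3647, 3661 and 3309 CPM, and in FG-4592-treated MSCs at 1046, 1163 and 1108 CPM. Every treated library lay below every vehicle-treated one, and the level was 3.20-fold lower (log2 fold change −1.68, SE 0.0639, FDR 4.87e-12, edgeR). In Ocy the vehicle-treated libraries were at 3050, 2693 and 2630 CPM and the FG-4592-treated libraries at 787, 793 and 720 CPM. Again the groups did not overlap, and the level was 3.64-fold lower (log2 fold change −1.86, SE 0.0643, FDR 1.04e-12). The response in Ocy minus that in MSCs was −0.19 (95% interval −0.37 to 0.0007, FDR 0.143), so that a difference in response was not called.

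Gja1 took 0.35% to 0.38% of all counts of a vehicle-treated MSC library, where it ranked between 13 and 14 among genes by CPM. With FG-4592 it ranked between 65 and 81 in MSCs. In Ocy its rank went from between 17 and 21 in vehicle to between 138 and 160 with FG-4592. The ratio of Gja1 to Cd44 counts per kb of exon, taken within each library and so free of the scaling between libraries, was 18.6 ± 1.02 in MSCs with vehicle and 5.58 ± 0.493 with FG-4592, and 15.8 ± 1.32 and 4.90 ± 0.341 in Ocy. Differentiation lowered Gja1 as well, with a log2 fold change of −0.34 (SE 0.0622, FDR 0.000234) in vehicle and −0.53 (SE 0.0624, FDR 2.14e-06) in FG-4592.

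Of the mRNA of the 19 connexin genes analysed, summed as CPM per kb of exon, Gja1 made up 97.9% ± 0.156 in vehicle-treated MSCs and 93.96% ± 0.466 with FG-4592. The shares in Ocy were 98.2% ± 0.288 and 94.9% ± 0.190. Connexin 43 mRNA thus made up most of this sum in every library, at 93.5% or more. The connexin 45 gene Gjc1 was at 30.6 ± 1.76 CPM in MSCs with vehicle and 29.3 ± 1.58 CPM with FG-4592, and at 17.5 ± 1.07 and 13.3 ± 0.386 CPM in Ocy. Gjc1 did not pass the test in MSCs (log2 fold change −0.06) and fell in Ocy by 0.39.

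Across 24 other genes of connexins, Panx2, ATP receptors and the junction scaffold Tjp1, 9 were tested and 8 stayed at or under 3 counts in every library. Under FG-4592 in MSCs 2 rose (P2ry2 and Tjp1) and 1 fell (P2rx7), with a median log2 fold change of 0.01 beside −0.05 over all genes (17.6% rose and 20.4% fell). In Ocy the same 2 rose and 3 fell (Gja3, Gjc1 and P2rx4), with a median of −0.40 beside 0.0015 (21.9% and 22%). Gja3 in Ocy lay near the level of 3 counts, with a mean of 0.0580 CPM in vehicle and 0 with FG-4592, and its groups overlapped. Between vehicle-treated Ocy and MSCs 5 rose (Gja4, P2rx4, P2rx7, P2ry2 and Tjp1) and 2 fell (Gja3 and Gjc1), with a median of 0.41 beside −0.0064 (26% and 24.9%). Gja4 in vehicle-treated MSCs lay under the level of 3 counts, with a mean of 0.00557 CPM, and was at 0.484 CPM in vehicle-treated Ocy. The response differed between cell types for Tjp1, higher in Ocy, and for Gjc1 and P2rx4, lower in Ocy, with a median of −0.25 beside 0.05 (13.3% of all genes higher and 11% lower). The difference for Gjc1 (−0.33) lost its call without any 1 of 4 libraries.

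Tjp1 encodes ZO-1, the scaffold that binds the tail of connexin 43, and it moved opposite to Gja1 with FG-4592. It was at 101, 110 and 103 CPM in vehicle-treated MSCs and at 197, 188 and 197 CPM with FG-4592. In Ocy it went from 153, 131 and 132 CPM to 393, 399 and 398 CPM, a log2 fold change of 1.52 (SE 0.0582, FDR 4.20e-12) with no overlap. The ATP receptor gene P2ry2 rose from 4.90 ± 0.347 to 11.5 ± 0.383 CPM in MSCs, a log2 fold change of 1.23 (SE 0.0998, FDR 5.68e-08). P2rx7, the ATP-gated channel, had 16, 19 and 35 counts in vehicle-treated MSCs and 0, 0 and 10 with FG-4592, whereas Ocy libraries had 139 to 233 counts in vehicle and 77 to 126 with FG-4592, where the change did not pass (log2 fold change −0.68, 95% interval −1.63 to 0.27, FDR 0.241).

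Of the pannexins, Panx3, which is known from cartilage and osteoblasts, was lower in Ocy than in MSCs. Vehicle-treated MSCs were at 19.2, 20.3 and 19.8 CPM and vehicle-treated Ocy at 10.1, 8.63 and 9.77 CPM. The groups did not overlap, and the log2 fold change was −1.06 (SE 0.114, FDR 1.03e-06), or −0.96 without the second vehicle-treated Ocy library. FG-4592-treated MSCs were at 18.9, 19.2 and 23.2 CPM and FG-4592-treated Ocy at 7.13, 9.73 and 7.91 CPM, with a log2 fold change of −1.31 (SE 0.115, FDR 6.91e-08). FG-4592 itself gave 0.05 in MSCs (95% interval −0.19 to 0.28) and −0.20 in Ocy (−0.45 to 0.04), and neither passed.

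Panx1, the widely expressed pannexin, was low, with 54 to 172 counts a library. It was at 0.981, 1.35 and 2.34 CPM in vehicle-treated MSCs and at 1.80, 2.22 and 1.58 CPM with FG-4592. In Ocy it was at 2.59, 1.83 and 2.36 CPM in vehicle and at 1.52, 1.59 and 1.49 CPM with FG-4592. The Ocy groups did not overlap, but the log2 fold change of −0.56 had a 95% interval of −1.16 to 0.03 and an FDR of 0.122. No comparison of Panx1 passed the test with all libraries. The third vehicle-treated MSC library was the highest of its group, and without it Panx1 was higher in vehicle-treated Ocy than MSCs (log2 fold change 0.99, FDR 0.00678) and its response to FG-4592 was lower in Ocy (−1.28, FDR 0.0167). Panx3 made up 95.7% ± 1.79 of the mRNA of the 3 pannexin genes per kb of exon in vehicle-treated MSCs and 87.8% ± 0.519 in vehicle-treated Ocy.

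The Piezo genes encode channels that open when the membrane is stretched. Piezo2 was at 8.68, 9.07 and 7.48 CPM in vehicle-treated MSCs and at 4.41, 3.77 and 3.98 CPM with FG-4592, 2.07-fold lower (log2 fold change −1.05, SE 0.209, FDR 0.000765, edgeR), and the log2 fold change was −0.97 without the second vehicle-treated MSC library. In Ocy it was at 13.5, 9.09 and 12.8 CPM in vehicle and at 3.96, 7.03 and 3.70 CPM with FG-4592, 2.41-fold lower (log2 fold change −1.27, SE 0.206, FDR 9.54e-05). The groups overlapped in neither cell type. The second library stood apart in both Ocy groups, low in vehicle and high with FG-4592, and the log2 fold change lay between −1.62 and −1.10 when each library was left out in turn.

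Piezo1 was the more abundant Piezo gene in every library. It was at 147, 154 and 162 CPM in vehicle-treated MSCs and at 171, 167 and 165 CPM with FG-4592, without overlap but with a log2 fold change of 0.12 that did not pass (95% interval −0.02 to 0.26, FDR 0.170). It was at 133, 157 and 131 CPM in vehicle-treated Ocy and at 151, 142 and 138 CPM with FG-4592, where the groups overlapped (log2 fold change 0.04, interval −0.10 to 0.17, FDR 0.698). In the FG-4592-treated cells Piezo1 was lower in Ocy, with a log2 fold change of −0.22 (SE 0.0646, FDR 0.00807). The ratio of Piezo1 to Piezo2 counts per kb of exon within a library was 29.3 to 37.5 in MSCs with vehicle and 67.1 to 76.5 with FG-4592. In Ocy it was 17.1 to 29.8 in vehicle and 35.0 to 65.9 with FG-4592. Piezo1 shares 2441 exonic bases with Ctu2, a gene on the opposite strand whose counts came to between 4.02% and 6.14% of those of Piezo1, the upper limit of shared read pairs.

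Piezo2 was higher in vehicle-treated Ocy than in vehicle-treated MSCs without overlap, but the log2 fold change of 0.49 did not pass (95% interval 0.06 to 0.92, FDR 0.0531). It passed in 9 of 21 alternative settings, with FDR from 0.00403 to 0.138.

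Trpv4, a calcium channel opened by osmotic and mechanical stimuli, was low in all conditions and higher in Ocy. It was at 1.85, 2.22 and 1.21 CPM in vehicle-treated MSCs and at 2.98, 3.63 and 3.41 CPM in vehicle-treated Ocy. The groups did not overlap, and the log2 fold change was 0.92 (SE 0.236, FDR 0.00372). With FG-4592, MSCs were at 1.48, 2.61 and 1.86 CPM and Ocy at 3.72, 4.12 and 3.89 CPM, a log2 fold change of 0.98 (SE 0.232, FDR 0.00192). Both values lie just under the fold cutoff, and it was passed in vehicle without the second vehicle-treated MSC library (1.17) or the first vehicle-treated Ocy library (1.04), and in FG-4592 without the second treated MSC library (1.23), without the first treated Ocy library (1.02) or with the replicate block (1.01). The effect of FG-4592 was 0.17 in MSCs (95% interval −0.33 to 0.68) and 0.23 in Ocy (−0.25 to 0.71), and neither passed.

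Of 21 other genes of mechanosensitive channels and their partners, 15 were tested and 4 stayed at or under 3 counts. FG-4592 raised 5 in MSCs (Kcnk2, Mdfic, Tmem63a, Trpc1 and Trpm7) and lowered 3 (Cacna1g, Mdfi and Trpv2), with a median log2 fold change of 0.09 beside −0.05 over all genes (17.6% rose and 20.4% fell). In Ocy it raised 5 (Cacna1g, Cacna1h, Kcnk2, Tmem63a and Trpc1) and lowered 4 (Mdfi, Tmem120a, Trpm7 and Trpv2), with a median of −0.11 beside 0.0015 (21.9% and 22%). Cacna1h in vehicle-treated Ocy lay under the level of 3 counts, with a mean of 0.0100 CPM, and was at 0.249 CPM with FG-4592. Differentiation in vehicle raised 6 and lowered 4 (Cacna1h, Tmem63a, Tmem63b and Trpc1), with a median of 0.06 beside −0.0064 (26% and 24.9%). The response was higher in Ocy for 3 (Cacna1g, Tmem63a and Trpc1) and lower for 3 (Kcnk2, Mdfic and Trpm7), with a median of −0.08 beside 0.05 (13.3% of all genes higher and 11% lower).

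Trpv2, a relative of Trpv4, fell with FG-4592 where Trpv4 did not pass. It went from 4.18, 4.61 and 5.07 CPM to 1.71, 1.68 and 1.64 CPM in MSCs, and from 11.1, 10.98 and 10.9 CPM to 4.02, 3.30 and 3.05 CPM in Ocy, log2 fold changes of −1.46 and −1.67 (SE 0.140 and 0.131). Trpc1, which encodes a cation channel subunit, moved the other way, from 10.6 ± 0.187 to 26.1 ± 0.864 CPM in MSCs and from 3.63 ± 0.142 to 12.2 ± 1.24 CPM in Ocy. Cacna1g, a T-type calcium channel, had 6, 24 and 4 counts in vehicle-treated MSCs and 0, 3 and 1 with FG-4592, and this fall lost its call without the second vehicle-treated library (FDR 0.0852). In Ocy it had 1358, 1035 and 1249 counts in vehicle and 1681, 1720 and 2143 with FG-4592, and this rise lost its call without the second vehicle-treated or the third FG-4592-treated Ocy library (FDR 0.0529 and 0.0838). The Ocy and MSC libraries were far apart in both treatments.

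Polycystin 1 and polycystin 2, the large membrane protein and the cation channel that pair in the primary cilium, both rose with FG-4592 in Ocy. Pkd1 was at 290, 316 and 285 CPM in vehicle-treated Ocy and at 388, 393 and 402 CPM with FG-4592. The groups did not overlap, and the level was 1.33-fold higher (log2 fold change 0.41, SE 0.0494, FDR 4.50e-06, edgeR). In MSCs Pkd1 was at 213, 216 and 221 CPM in vehicle and at 233, 219 and 236 CPM with FG-4592, where the groups overlapped (log2 fold change 0.08, 95% interval −0.03 to 0.19, FDR 0.227). The difference between these responses, tested itself, was 0.33 (SE 0.0699, 95% interval 0.18 to 0.48, FDR 0.00258). It passed in each of 20 alternative settings, with values from 0.26 to 0.35 and FDR from 0.000279 to 0.0248.

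Pkd1 was also higher in Ocy than in MSCs, by a log2 fold change of 0.45 in vehicle (SE 0.0495, FDR 1.17e-06) and 0.78 in FG-4592 (SE 0.0497, FDR 1.29e-09). Pkd1 shares 693 of its 17415 exonic bases with Tsc2, a gene on the opposite strand that encodes the mTOR regulator tuberin, and the counting used no strand. Tsc2 counts came to between 32.4% and 47.5% of those of Pkd1, which is the upper limit of what shared read pairs could be. Tsc2 moved with Pkd1 under FG-4592: it rose in Ocy by a log2 fold change of 0.43 (FDR 9.68e-07), its value in MSCs was 0.02 (FDR 0.819), and its response differed by 0.41 (FDR 0.000193). The share of Pkd1's response that read pairs in the overlap make up was not tested. With differentiation in vehicle Tsc2 was at −0.05 (FDR 0.353) while Pkd1 rose.

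Pkd2 was at 258, 236 and 223 CPM in vehicle-treated Ocy and at 270.0, 294 and 268 CPM with FG-4592. The groups did not overlap, by a narrow margin, and the log2 fold change was 0.21 (SE 0.0568, FDR 0.00564). With the library size alone as the scale it was 0.12 (FDR 0.114) and did not pass. In MSCs Pkd2 was at 223, 217 and 230 CPM in vehicle and at 251, 238 and 238 CPM with FG-4592, again without overlap, and the log2 fold change of 0.12 did not pass (95% interval −0.0054 to 0.24, FDR 0.127). The ratio of Pkd1 to Pkd2 counts per kb of exon within a library was 0.567 ± 0.0115 in vehicle-treated MSCs and 0.553 ± 0.0244 with FG-4592, and 0.728 ± 0.0644 in vehicle-treated Ocy and 0.832 ± 0.0493 with FG-4592. The treated and vehicle-treated libraries overlapped in both cell types.

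Of 16 genes of the primary cilium and the polycystin family, 13 were tested and 1 stayed at or under 3 counts. In FG-4592-treated MSCs 3 rose (Arl13b, Dync2h1 and Ift20) and 4 fell (Bbs1, Ift80, Ift88 and Kif3a), with a median log2 fold change of −0.12 beside −0.05 over all genes (17.6% rose and 20.4% fell). In FG-4592-treated Ocy 6 rose and 1 fell (Tulp3), with a median of 0.24 beside 0.0015 (21.9% and 22%). Arl13b, a small GTPase of the ciliary membrane, and Dync2h1, the motor of retrograde ciliary transport, rose in both cell types. With differentiation in vehicle 1 rose (Pkd2l2) and 6 fell, with a median of −0.10 beside −0.0064 (26% and 24.9%). The response was higher in Ocy for 5 (Adcy6, Bbs1, Bbs4, Ift80 and Kif3a) and lower for 1 (Tulp3), with a median of 0.26 beside 0.05 (13.3% of all genes higher and 11% lower).

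Integrins and the YAP/TAZ pathway pass force on from the matrix, and the 17 genes of that list were all tested. FG-4592 raised 7 in MSCs and lowered 4 (Ccn2, Itga1, Itga5 and Pxn), and it raised 8 in Ocy and lowered 2 (Itgb5 and Tead1), with median log2 fold changes of 0.13 and 0.16 beside −0.05 and 0.0015 over all genes. The shares of all genes tested that rose and fell were 17.6% and 20.4% in MSCs and 21.9% and 22% in Ocy. Differentiation in vehicle raised 8 and lowered 6, with a median of 0.14 beside −0.0064, where 26% of all genes rose and 24.9% fell. The responses were higher in Ocy for 3 (Amotl2, Itga1 and Itgb3) and lower for 3 (Itgb5, Ptk2 and Tead1), with a median of 0.12 beside 0.05 (13.3% of all genes higher and 11% lower). Itga1, a collagen-binding integrin chain, turned its direction between the cell types. It went from 246, 243 and 253 CPM to 89.8, 86.2 and 95.5 CPM with FG-4592 in MSCs, and from 259, 289 and 272 CPM to 764, 715 and 795 CPM in Ocy. The log2 fold changes were −1.45 (SE 0.0563) and 1.47 (SE 0.0559), and their difference of 2.92 had an FDR of 2.48e-12. Ccn2, a YAP/TAZ target, was at 188 ± 14.2 CPM in vehicle-treated MSCs and 440 ± 19.0 CPM in vehicle-treated Ocy.

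Of 12 genes known to respond to load in bone, 9 were tested, and Sost, which loading represses, was at 0 in all libraries. FG-4592 raised 3 in MSCs (Nos2, Ptgs2 and Spp1) and lowered 2 (Egr1 and Fos), and it raised 2 in Ocy (Nos2 and Ptger4) and lowered 2 (Igf1 and Tnfsf11), with median log2 fold changes of 0.52 and −0.13 beside −0.05 and 0.0015 over all genes (17.6% rose and 20.4% fell in MSCs, 21.9% and 22% in Ocy). Nos2 lay under the level of 3 counts in vehicle, with means of 0.00524 CPM in MSCs and 0 CPM in Ocy. With FG-4592 its means were 0.281 and 0.997 CPM. Tnfsf11 was also low in Ocy, with means of 1.32 CPM in vehicle and 0.0748 CPM with FG-4592. Differentiation in vehicle raised 7 and lowered 1 (Ptger4), with a median of 0.80 beside −0.0064, where 26% of all genes rose and 24.9% fell. The response was higher in Ocy for 2 (Egr1 and Fos) and lower for 3 (Igf1, Ptgs2 and Spp1), with a median of −0.59 beside 0.05 (13.3% of all genes higher and 11% lower). Igf1, an anabolic growth factor of bone, was at 127 ± 5.34 CPM in vehicle-treated MSCs and 132 ± 3.00 CPM with FG-4592, and at 584 ± 1.61 and 307 ± 29.5 CPM in Ocy. Fos, an early gene of the AP-1 factor, was at 1.55 ± 0.182 and 0.578 ± 0.178 CPM in MSCs, and at 5.21 ± 1.04 and 4.44 ± 0.259 CPM in Ocy.

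**Figure D3:**
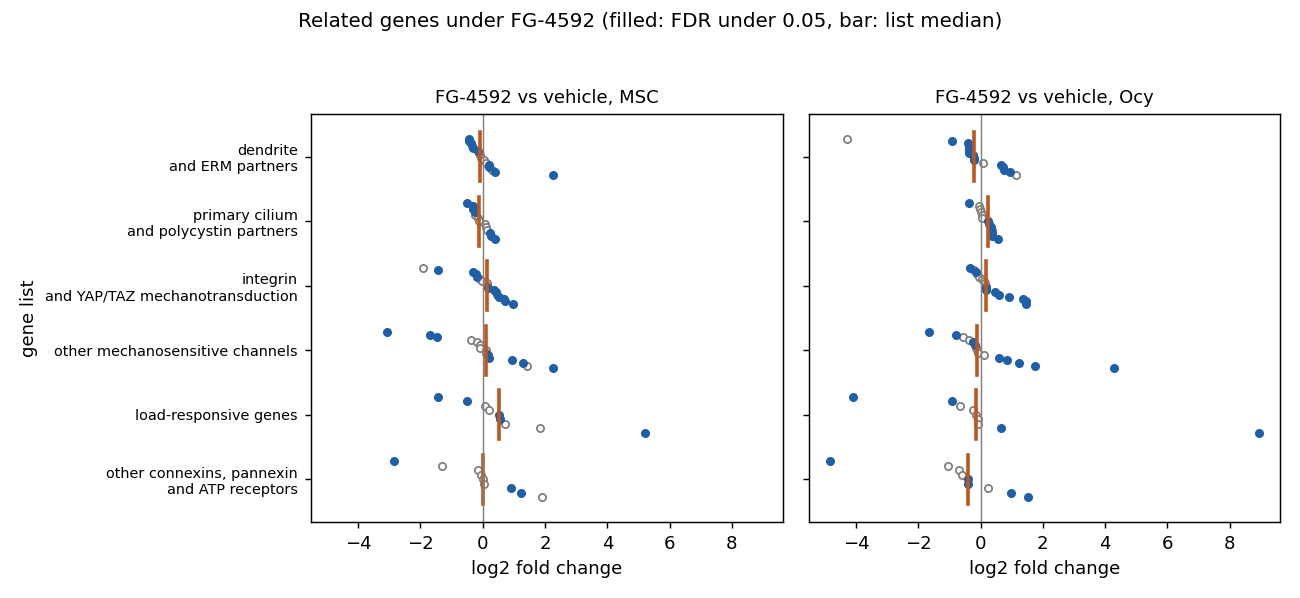
Log2 fold change with FG-4592 (horizontal axes) of each tested gene of 6 lists, in MSCs and in osteocytes (Ocy); points are genes, filled where the FDR was under 0.05, and bars are list medians. The genes of every list lie on both sides of 0, and list medians range from −0.12 to 0.52 in MSCs and from −0.40 to 0.24 in Ocy; points beyond 4 on either side are genes with at most 102 counts in any library.

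Corrected for exonic length, Gja1 had the highest level of the 9 genes in every condition, from 345 CPM per kb in vehicle-treated MSCs to 74.7 CPM per kb in FG-4592-treated Ocy. In vehicle-treated MSCs it was followed by Pkd2 (21.98 CPM per kb), Cd44 (18.6), Piezo1 (15.6), Pkd1 (12.5) and Panx3 (5.75), and no neighbours in this order overlapped. Piezo2 (0.490), Trpv4 (0.432) and Panx1 (0.258) came last, and each overlapped with its neighbour in that order. In FG-4592-treated Ocy the order was Gja1, Pkd2 (27.3 CPM per kb), Pkd1 (22.6), Cd44 (15.3), Piezo1 (14.5), Panx3 (2.40), Trpv4 (0.960), Piezo2 (0.285) and Panx1 (0.254). There, Cd44 overlapped with Piezo1 and Piezo2 with Panx1. Pkd1 thus went from the fifth place among the 9 to the third, and Piezo2 in FG-4592-treated MSCs, at 0.236 CPM per kb, was last.

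**Figure D4:**
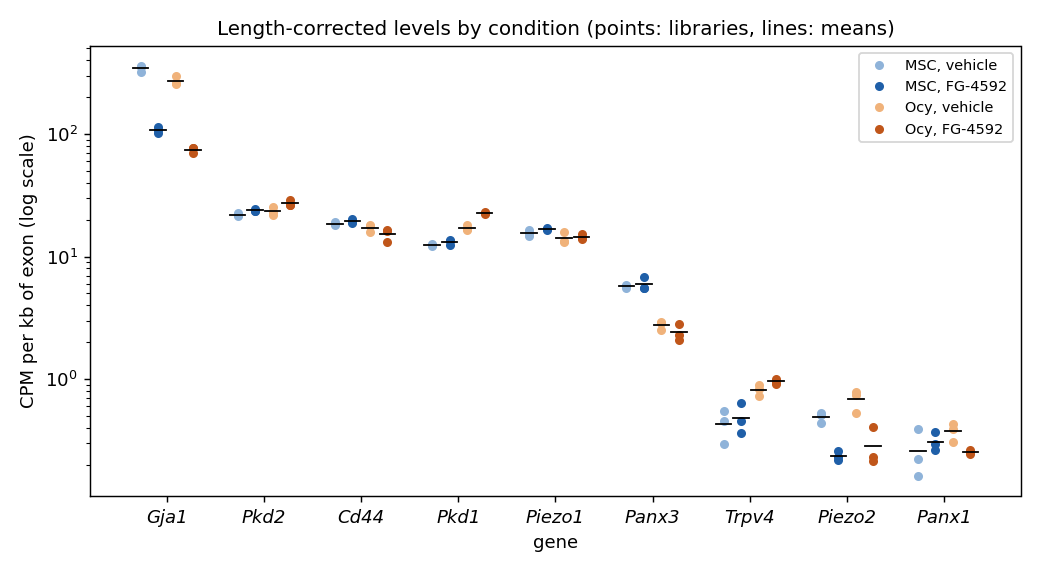
Level in CPM per kb of exon (vertical axis, log scale) of 9 genes in the 4 conditions; points are the 3 libraries of a condition and short lines their means. Gja1 lies between 70.2 and 357 CPM per kb, and Trpv4, Piezo2 and Panx1 lie at or under 1.01 CPM per kb in all libraries.

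For each of the 9 genes, the 2 protein-coding genes whose log2 CPM followed it most closely were found among 11253 candidates that averaged 100 counts or more in at least 1 condition. The measure was Pearson's r over the 12 libraries, which share 4 conditions, so it mostly follows the condition means and is given as a description. For Gja1 they were Ifit3 (r = 0.986), an interferon-induced gene, and Plxna2 (0.985), a semaphorin co-receptor. For Panx3 they were Micu2 (0.991), a regulator of mitochondrial calcium uptake, and Fam135a (0.984), and for Piezo2 Pdia5 (0.960), a protein disulfide isomerase, and Sh3bgrl (0.959). Pkd1 was followed most closely by Tns3 (0.990), a focal adhesion protein, and Irs2 (0.989), an insulin receptor substrate, and Pkd2 by Nbeal1 (0.969) and Tasor (0.947). The genes closest to the remaining members were Rap2c (0.947) and Sept7 (0.940) for Cd44, Il17rc (0.947) and Sbf1 (0.919) for Piezo1, Ccdc174 (0.951) and Hsd3b7 (0.949) for Trpv4, and Acap3 (0.873) and Txndc11 (0.839) for Panx1. With RLE in place of TMM factors, the second gene became Snx2 for Panx3 and Ptprs for Piezo1.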

How the data were processed

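RNAseq of 12 MPC2 libraries was analysed from 1 table of gene counts. Paired reads were mapped to mm10 with STAR 2.7.2a, and the authors then used featureCounts (Subread 1.6.2) with the Gencode M22 annotation on reads with 1 mapped place (mapping quality of at least 10, no strand, a pair counted for each gene it overlaps), depositing whole counts without normalization. The deposited exonic length of each gene, in bases, was used for CPM per kb.

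The labels gave the condition of every library. From the counts, genes above 10 counts in 3 or more libraries (16484 of 56350) entered 1 quasi-likelihood fit of all 12 libraries (edgeR 4.0.16, R 4.3.3, scaling by TMM, 8 residual degrees of freedom). All 4 comparisons of conditions and the difference between the FG-4592 responses were tested, with Benjamini-Hochberg FDR over all genes tested. Sparse values are limited by depth: a 0 allows up to 3 counts, which were 0.0447 to 0.0545 CPM and cover counting error only.

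The 10 members, the 6 lists of related genes and the marker lists were written with earlier results of these data known, and 1 connexin gene of the lists is not reported here. Of each list, the genes named with their values are the largest rise and fall past both cutoffs with a mean of 100 counts or more in the highest condition, in each comparison of 2 conditions, unless the text says otherwise. Markers of other cell types were summed as CPM per library.

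Alternatives were other scalings (RLE, upper quartile, library size only), other filters on low counts including none, a likelihood ratio test, DESeq2 1.42.0, fits of the compared libraries alone, replicate number as a block, and leaving out each library in turn. Promoter windows came from RefSeq on GRCm38.p6. Figures were drawn in matplotlib 3.10.9 under Python 3.11.15.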

Additional observations from a re-analysis of the deposited data

Results flagged for a closer look

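The response of Pkd1 to FG-4592 differed between the cell types when the difference itself was tested. The log2 fold change was 0.08 in MSCs and 0.41 in Ocy, and the response in Ocy minus that in MSCs was 0.33 (FDR 0.00258, edgeR's quasi-likelihood test with Benjamini-Hochberg adjustment), with all 3 treated Ocy libraries above all 3 vehicle-treated ones. The other 8 members tested did not pass this test. Tsc2, which shares exonic bases with Pkd1, had a difference of 0.41, and its part in that of Pkd1 was not tested.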

How the results depend on the processing

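Over 936 refits of single members, 890 left the direction and the call as they were, 1 lost a call, 30 gained one and 15 turned the sign of a value that had not passed. The only lost call was that of Pkd2 in Ocy with the library size alone. Over 1351 refits of the genes named from the lists, 1305 stayed the same, 24 lost a call, 18 gained one and 4 turned sign. Of 1456 refitted counts of genes called in the lists, or of members past both cutoffs, 56 moved. In MSCs 2 members rose with FG-4592 when only the libraries compared were fitted (Piezo1 and Pkd2), and 0 to 1 when a library was left out (1 without the first or the second vehicle-treated Ocy library). With the library size alone 1 rose and 4 fell in Ocy, and 2 to 4 fell when a library was left out (4 without the second FG-4592-treated Ocy library). The response was lower in Ocy for 0 to 1 members when a library was left out (1 without the third vehicle-treated MSC library, Panx1, or the second vehicle-treated Ocy library, Cd44). Library size alone put the median of all genes at −0.13 in MSCs and −0.10 in Ocy under FG-4592. Signs turned under FG-4592 in MSCs with the library size alone for Cd44 (−0.024), Panx3 (−0.036), Pkd1 (−0.0056) and Igf1 (−0.029), and in Ocy for Piezo1 (−0.063, and −7.2e-05 with upper-quartile factors). With each library left out, values that changed sign ranged from −0.052 to 0.10 for Panx3, −0.075 to 0.41 for Trpv4 and −0.084 to 0.011 for Gjc1 in MSCs, from −0.019 to 0.11 for Piezo1 in Ocy, from −0.072 to 0.44 for Piezo2 between FG-4592-treated Ocy and MSCs, and from −0.20 to 0.30 for Trpv4 and −0.0043 to 0.17 for Ccn2 in the difference between responses. The cause was not tested. The libraries share only replicate numbers: same-numbered libraries of different conditions correlated in their deviations at −0.13 to 0.05, and 1 of 12 correlated best with its own number. With the replicate block the members that rose and fell remained 0 and 2 in MSCs and 2 and 2 in Ocy in number, and Gja1 was at −1.68 in MSCs. Depth limits Panx1 and Trpv4, at 54 to 252 counts a library.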
